A study of Homo sapiens with 3 samples.

Results

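The heterotrimeric G protein subunits, the RGS proteins, the adenylyl cyclases, the G protein-coupled receptor kinases and the β-arrestins were examined as 1 signaling module in H128 cells, an established human small cell lung cancer (SCLC) cell line of neuroendocrine type. Members were taken by a rule on the gene symbol (GNA, GNB and GNG subunits, RGS, ADCY, GRK and ARRB genes). The rule was set with earlier results of these data known, and 71 of the 17448 genes in the table met it. These were 16 α subunits, 5 β subunits, 13 γ subunits, 19 RGS genes, 9 adenylyl cyclases, 7 receptor kinases and 2 β-arrestins. ADCY4, RGS13 and RGS18 were not analysed here.

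H128 cells were transfected with a control siRNA (siCont) or with 1 of 2 siRNAs against ESRRG, the gene of the orphan nuclear receptor ERRγ, and their total RNA was sequenced 48 h later. There was 1 library per condition, labelled siCont, siERRG2 and siERRG3, and the values of each gene are given in that order. All 3 libraries came from the same line by transient transfection, with no genetic change and no replicate, so every difference compares single libraries, not conditions, and no p-value is given. The labels do not settle which designed siRNA each ESRRG library received, and both ESRRG libraries were compared with the same siCont library.

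Receptors with 7 membrane spans hand their signal to heterotrimeric G proteins, in which the α subunit exchanges GDP for GTP and separates from the βγ dimer. The α subunits of the Gs class stimulate adenylyl cyclases, those of the Gi class inhibit them, and those of the Gq class activate phospholipase C β. RGS proteins speed up GTP hydrolysis by the α subunit and so end the signal, while receptor kinases and β-arrestins act on the receptor itself, uncoupling it and moving it into the cell. Neuroendocrine cells use Gi and Go proteins in the control of hormone and transmitter release.

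In the genome several of these genes lie near each other, and some of these neighbours arose by duplication. Members that follow each other within 500 kb made 15 pairs, and genes outside the module that may lie between them were not considered. In some pairs both members were expressed, as GRK5 and RGS10, and in some both were low, as RGS4 and RGS5. In others, in H128 cells, an expressed member lay near one at or near 0. The inhibitory α subunits and the transducins, which are the α subunits of photoreceptors and taste cells, form 3 such pairs. Levels of different genes are compared on the deposited expression value, which corrects the count for the length of the transcript and for the size of the library, and is called FPKM here. GNAI3 stood at 29.8, 27.5 and 31.3 FPKM, with GNAT2 a gap of 2.9 kb away on chromosome 1 at 0.3, 0.15 and 0.18. On chromosome 3 GNAI2 stood at 58.2, 48.4 and 45.4, and GNAT1, 29.4 kb from it, at 0.07, 0 and 0.08. GNAI1 on chromosome 7 had 34.3, 37.7 and 32.1, and GNAT3, 232.5 kb away, 0, 0 and 0.21. These pairs are shown by the 100 bases before a transcript start, the one with most CpG dinucleotides where a gene has several. The RefSeq sequence of GRCh38.p14 is given 5′ to 3′ on the strand of the gene, with CpG in capitals.

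GNAI1, chr7:80134731-80134830, plus strand: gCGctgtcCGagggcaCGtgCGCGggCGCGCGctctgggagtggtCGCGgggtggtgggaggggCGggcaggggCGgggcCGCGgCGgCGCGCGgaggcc
GNAT3, chr7:80512065-80512164, minus strand: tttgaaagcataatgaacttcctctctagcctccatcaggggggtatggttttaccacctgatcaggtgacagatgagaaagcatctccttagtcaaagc
GNAI2, chr3:50236104-50236203, plus strand: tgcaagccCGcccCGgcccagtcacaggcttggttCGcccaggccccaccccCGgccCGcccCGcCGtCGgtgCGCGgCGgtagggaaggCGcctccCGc
GNAT1, chr3:50191510-50191609, plus strand: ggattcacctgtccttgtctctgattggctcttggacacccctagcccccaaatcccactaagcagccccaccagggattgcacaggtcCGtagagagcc
GNAI3, chr1:109548515-109548614, plus strand: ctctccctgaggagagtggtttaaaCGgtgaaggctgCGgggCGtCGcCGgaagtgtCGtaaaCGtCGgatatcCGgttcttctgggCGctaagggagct
GNAT2, chr1:109619617-109619716, minus strand: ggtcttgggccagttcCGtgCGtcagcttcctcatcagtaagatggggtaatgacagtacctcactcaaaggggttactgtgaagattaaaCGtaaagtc

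Within these 100 bases GNAI1 held 18 CpG, GNAI2 13 and GNAI3 10, against 0 in GNAT3, 1 in GNAT1 and 3 in GNAT2. Over the whole 300-base window, from 250 bases before to 50 after the start, the same genes held 42, 29 and 25 CpG against 2, 5 and 20. A window was matched to 58 of the 71 members, and for genes with several starts the one with most CpG was taken. This choice can only raise the value of a gene with several starts. GNAI1, GNAI2 and GNAI3 have 2, 3 and 1 listed starts, and GNAT3, GNAT1 and GNAT2 have 1, 1 and 2. The 21 members with at least 10 FPKM in every library had a median of 36 CpG (lowest 23, highest 53), and the 24 members under 1 FPKM in every library a median of 12, over a range of 1 to 50. In the remaining 13 the median was 33, against 26 over the 13693 genes of the expression table with a window and 16 over all 27305 genes with one. All 58 members together had a median of 29.5. The 2 sets of members overlapped: ADCY1 and ADCY2, calcium-stimulated and βγ-stimulated cyclases, held 48 and 50 CpG with 12 counts or fewer in every library. These windows describe the genes and were looked at after their levels were known.

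3 motifs were searched on both strands of the promoter windows. These covered every start listed for a gene in the RefSeq set used, also those with fewer CpG. Starts outside this set were not searched: GNB4, on the minus strand, extends to 179527798, but the upstream bases of its only window were 179451471 to 179451570. The extended ERR response element TNAAGGTCA was found in 0 of the 58 members and in 1.17% of all genes, and its core AAGGTCA, which the extended form contains, in 1 member, RGS7 (1.72%), and in 4.8% of all genes. The palindromic cAMP response element TGACGTCA was found in GNAO1 and GNG7, 3.45% of the members, and in 2.25% of all genes. The matches are shown in windows of 30 bases on the strand of the gene, with the motif in capitals. In RGS7 it lies on the opposite strand, 43 bases after one of its 4 starts, and not in the window with most CpG, while in GNAO1 and GNG7 it begins 148 and 241 bases before the start.

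GNAO1, chr16:56191330-56191359, plus strand: cgcggccctgcTGACGTCAgctggcggccc
GNG7, chr19:2702915-2702944, minus strand: gcgccttccTGACGTCAcgaagtcaccctg
RGS7, chr1:241356909-241356938, minus strand: ggaggggagacgccgcggggccgTGACCTT

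A match describes the letters in the window and is not a binding site. The absence of a match covers only the 300 bases around the listed starts.

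As the check of the libraries, ESRRG (gene 2104, chr1:216503246-217137702 in RefSeq positions of GRCh38.p14) had 806, 211 and 230 counts, a log2 fold change of -1.94 in siERRG2 and -1.82 in siERRG3. The libraries held 19861937, 19900580 and 20016780 counts, of which the 71 members took 0.718%, 0.709% and 0.648%. Of 9 listed neuroendocrine markers 7 were analysed here, and these were expressed. Their summed level was 1294, 1175 and 1462 FPKM, of which UCHL1 alone gave 729, 696 and 1006. INSM1 had 10359, 5279 and 9168 counts and NEUROD1 7395, 7020 and 4073. In siERRG3 the log2 fold change was -0.88 for NEUROD1, -0.51 for SYP, -0.28 for CHGA and -0.20 for INSM1. It was 0.16 for NCAM1, 0.45 for UCHL1 and 0.54 for DLL3. In siERRG2 it was -0.99 for INSM1, 0.30 for DLL3 and from -0.14 to 0.18 for the others. POU2F3 and YAP1, which mark other SCLC states, had 11 counts or fewer, and 4 leukocyte markers summed to 143, 138 and 181 counts. Of 5 fibroblast markers, summing to 2332, 3233 and 2725 counts, COL1A2 alone gave 2043, 2896 and 2505 and DCN 8 in each library. The 3 endothelial markers summed to 1483, 1644 and 610 counts, of which CDH5 gave 1456, 1623 and 585, while VWF had 0, 1 and 0. Their part in the differences below was not tested.

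Levels differed widely among the members, and the share of all genes at the same cut-offs was not computed. 23 of the 71 genes had at least 10 FPKM in every library and 30 were under 1 in every library, 11 of them with 3 counts or fewer throughout. In siCont the α subunits summed to 2046 FPKM, the β subunits to 648, the γ subunits to 301, the RGS genes to 144, the receptor kinases to 103, the β-arrestins to 101 and the adenylyl cyclases to 21.6. GNAS, the gene of the stimulatory α subunit, made up most of the first sum: without it the α subunits came to 305, 272 and 268 FPKM. By counts, not divided by transcript length, the leading gene was the same in 13 of 15 subfamilies, with GNA13 ahead of GNA12 and GRK2 ahead of GRK6 in siCont. The adenylyl cyclases, summed over all 9 genes, were the least abundant family in all 3 libraries, at 21.6, 24 and 21.8.

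For the comparisons, 51 of the 71 members reached 10 counts in at least 1 library, as did 14031 of all genes. A 1.2-fold difference in log2 CPM made a gene lower or higher, and the difference was beyond counting error when the 95% exact binomial (Clopper-Pearson) interval of its scaled count ratio also left out 1. In siERRG2 against siCont, 12 of the 51 members were lower and 9 higher, 23.5% and 17.6%, against 19.2% and 16.4% of all genes, and the lower ones include GNG3, whose 3 and 1 counts are too few for a fold change. Beyond counting error, 8 were lower and 4 higher, 15.7% and 7.84%, against 12.8% and 10.2%. In siERRG3 against siCont, 13 were lower and 12 higher, 25.5% and 23.5%, against 25.1% and 23.2%, and 10 and 7 of them beyond counting error, 19.6% and 13.7%, against 19.9% and 17.1%. Between the ESRRG libraries, siERRG3 against siERRG2, 12 members were lower and 11 higher, 23.5% and 21.6%, against 25.3% and 26.4%, with 9 and 8 beyond counting error, 17.6% and 15.7%, against 20.4% and 19.6%. The shares of the members lay near those of all genes, and the counts are therefore no result about the module as a whole. The median log2 fold change of the members was -0.010 in siERRG2 and 0.029 in siERRG3, against 0.000 and -0.003 for all genes. In bulk RNA, fewer cells expressing a gene and less RNA of it per cell cannot be told apart.

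Among the 40 members with a mean of at least 50 counts, 11 differed from siCont beyond counting error in siERRG2 and 15 in siERRG3, 27.5% and 37.5%, against 24.9% and 41% of all genes at that depth. Together these were 20 genes, whose values follow by role.

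**Figure D1:**
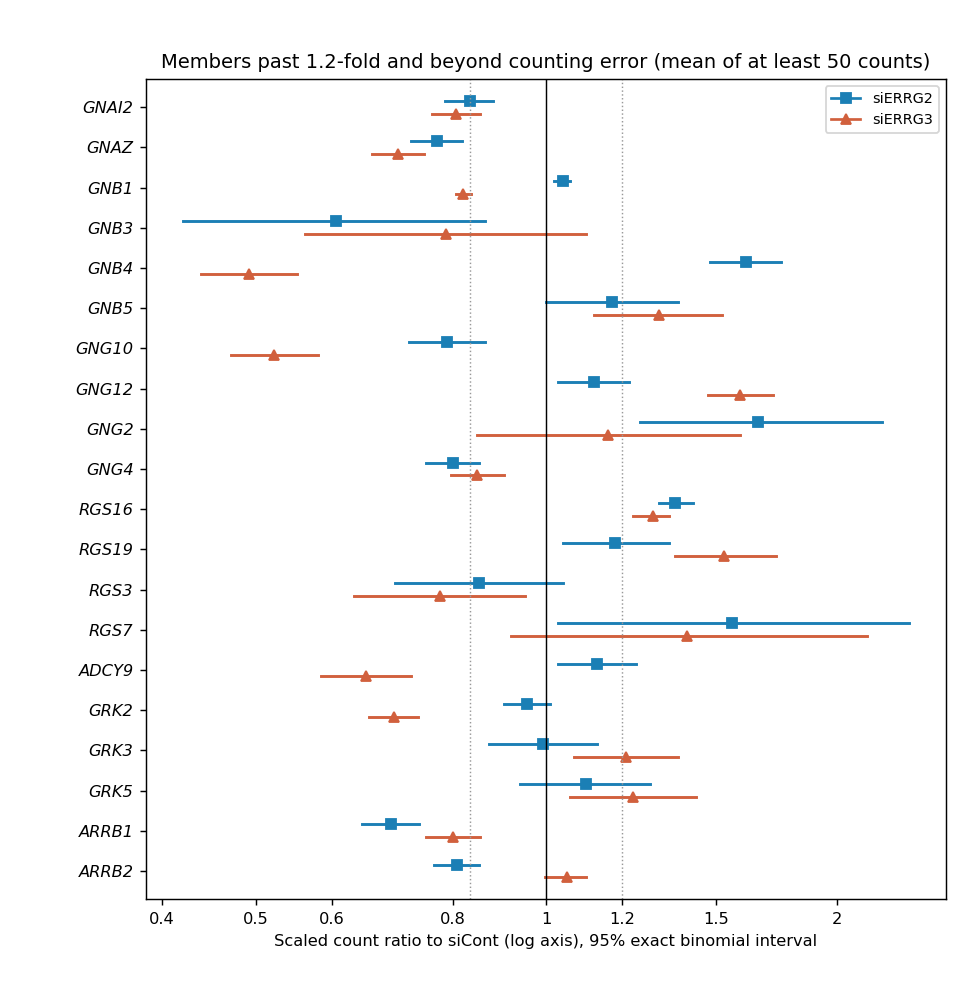
Scaled count ratio to siCont (log axis) of the 20 members with a mean of at least 50 counts that were past 1.2-fold and beyond counting error in at least 1 ESRRG library, with squares for siERRG2, triangles for siERRG3 and bars for the 95% exact binomial interval of each. The solid line is a ratio of 1 and the dotted lines are 1.2-fold. GNAI2, GNAZ, GNG10 and ARRB1 lie at or left of the lower dotted line in both libraries and RGS16 right of the upper one in both, while the symbols of GNB4 lie on opposite sides.

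GNAS (gene 2778, chr20:58839748-58911192), which encodes the α subunit that stimulates adenylyl cyclase, had 55720, 53042 and 48584 counts, or 1741, 1661 and 1514 FPKM. These are values for the whole gene, which has 6 listed RefSeq starts, and the share of each of its transcripts was not resolved. Its ratio to siCont was 0.941 in siERRG2 (interval 0.93 to 0.952) and 0.857 in siERRG3 (0.847 to 0.868), off 1 by counting error but under 1.2-fold. GNAS overlaps other transcripts on both strands, and whether the counting used strand is not given in the sources used here. GNAL, the related α subunit of olfactory neurons, was nearly silent, with 40, 25 and 22 counts. 

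The Gi class was shared among 5 genes. GNAO1, the Go α subunit of neurons and endocrine cells, led it with 7995, 7245 and 7504 counts, or 32.8%, 31.7% and 33.9% of the summed FPKM of its 8 genes. Its log2 fold changes, -0.16 and -0.12, were under the threshold. GNAZ (gene 2781, chr22:23070519-23125032), which encodes the pertussis toxin-resistant Gz, had 2437, 1899 and 1740 counts. Its log2 fold change was -0.38 in siERRG2 (ratio interval 0.725 to 0.818) and -0.51 in siERRG3 (0.66 to 0.747), the largest difference from siCont among the 5 expressed genes of its class in each library. GNAI2 had 2635, 2219 and 2160 counts, a log2 fold change of -0.26 (0.786 to 0.881) and -0.31 (0.761 to 0.854). In siERRG2 it lay at the 1.2-fold limit, and with libraries scaled by total counts (-0.250) or by DESeq2 size factors (-0.255) it was under the limit. The other inhibitory subunits did not reach it: GNAI1 had 2276, 2506 and 2146 counts, and GNAI3 2836, 2623 and 3007. The summed level of the class was 231, 202 and 199 FPKM.

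In the Gq class GNA11 led with 2902, 2533 and 2480 counts, or 71.8%, 69.6% and 68.3% of the summed FPKM, and its log2 fold changes of -0.21 and -0.25 stayed under 1.2-fold. GNAQ, its close relative, had 1632, 1614 and 1710 counts, and both ratio intervals included 1 (0.912 to 1.05 and 0.962 to 1.1). GNA12 and GNA13 were at similar levels, 13, 14 and 11.3 FPKM against 12.7, 12.8 and 13.9, and neither was past 1.2-fold from siCont. GNA12 differed between the ESRRG libraries, with a log2 fold change of -0.28 in siERRG3 against siERRG2 (0.75 to 0.899).

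Of the 40 members averaging 50 counts or more, the ESRRG libraries differed most on a β subunit. GNB4 (gene 59345, chr3:179396088-179527798), a minor β subunit, had 901, 1469 and 451 counts, so that siERRG2 was the highest library and siERRG3 the lowest. From siCont its log2 fold change was 0.69 in siERRG2 (ratio 1.61, interval 1.48 to 1.75) and -1.02 in siERRG3 (ratio 0.492, interval 0.439 to 0.552). Of the members past the threshold beyond counting error in both ESRRG libraries it was the 1 with opposite directions, and siERRG3 against siERRG2 gave -1.71, a ratio of 0.305 (0.274 to 0.34). The deposited counts of GNB4 were not whole numbers in every library.

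GNB1 (chr1:1785286-1891087) supplied most β subunit RNA, with 26892, 28270 and 22452 counts or 444, 464 and 366 FPKM. It was within 1.2-fold of siCont in siERRG2 (log2 fold change 0.06) and lower in siERRG3 (-0.28, ratio interval 0.807 to 0.836). GNB2 had 6214, 6512 and 6947 counts and took 29.1%, 29% and 35.6% of the summed FPKM, against 68.6%, 68.1% and 62.3% for GNB1. GNB5, the β subunit that pairs with RGS proteins of the R7 class, had 300, 355 and 399 counts, and was higher in siERRG3 (0.38, 1.12 to 1.52). GNB3, known from cone photoreceptors, had 85, 52 and 68 counts, lower in siERRG2 (-0.70, 0.42 to 0.864), while its interval in siERRG3 included 1.

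Among the γ subunits, which anchor the βγ dimer to the membrane through a lipid, GNG5 held most of the RNA. It had 3428, 4101 and 3088 counts, or 220, 263 and 197 FPKM, and 73.3%, 79.5% and 75.5% of the summed level. Against siCont it was under 1.2-fold in both libraries, at 0.24 and -0.17, but siERRG3 against siERRG2 gave -0.42 (0.715 to 0.785).

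GNG10 (gene 2790, chr9:111661605-111670226), the second γ subunit by level, had 1071, 856 and 570 counts. The log2 fold change was -0.34 in siERRG2 (0.721 to 0.865) and -0.93 in siERRG3 (0.472 to 0.58), and siERRG3 was also below siERRG2 (-0.59). The read-through gene DNAJC25-GNG10, which spans GNG10, had 8, 0 and 12 counts, and how reads were split between them is uncertain. GNG12 (gene 55970, chr1:67701475-67833467) went the other way, with 993, 1127 and 1607 counts: 0.17 in siERRG2, under the threshold, and 0.67 in siERRG3 (1.47 to 1.72). GNG10 took 14.5%, 10.5% and 8.81% of the γ subunit level and GNG12 3.73%, 3.83% and 6.91%.

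GNG4, a neuronal γ subunit, had 2152, 1743 and 1858 counts, lower in siERRG2 (-0.32, 0.751 to 0.853) and at -0.24 in siERRG3, under 1.2-fold. GNG2 had 78, 131 and 92 counts, higher in siERRG2 (0.72, 1.25 to 2.23) with an interval that included 1 in siERRG3. At lower depth, GNG8 had 50, 23 and 33 counts, a ratio of 0.455 in siERRG2 (0.265 to 0.759). GNG3, a γ subunit of neurons, had 3, 1 and 19 counts, a ratio of 6.23 to siCont in siERRG3 with a counting interval from 1.83 to 32.9. The γ subunits of photoreceptors, GNGT1 and GNGT2, had 3 counts or fewer in every library.

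RGS16 dominated the RGS genes. This R4-class protein, which accelerates GTP hydrolysis on Gi and Gq α subunits (gene 6004, chr1:182598623-182604389), had 3757, 5174 and 4921 counts, or 77.7, 107 and 101 FPKM. Its log2 fold change was 0.44 in siERRG2 (1.31 to 1.42) and 0.36 in siERRG3 (1.23 to 1.34), and both ESRRG libraries stood above siCont. Its counts were whole numbers in every library. Of all RGS RNA by FPKM it took 54.1%, 62.8% and 57.8%, and of the R4 class 87.7%, 91.3% and 91.2%. Its neighbour RGS8, 37.4 kb away on chromosome 1, had 291, 254 and 260 counts, and both of its intervals included 1 (0.726 to 1.02 and 0.74 to 1.04).

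RGS19 (chr20:64073181-64079964), an RZ-class protein first known for binding Gαi3, had 451, 538 and 703 counts, with 0.24 in siERRG2, under 1.2-fold, and 0.61 in siERRG3 (1.36 to 1.73). RGS10 led the R12 class with 630, 534 and 657 counts, under 1.2-fold from siCont in both libraries, and RGS12 and RGS14 had 78 to 173 counts. RGS3 had 218, 188 and 172 counts and was lower in siERRG3 (-0.36, 0.632 to 0.952). RGS7, the leading R7-class gene, had 40, 63 and 57 counts, higher in siERRG2 (0.61, 1.03 to 2.38) with an interval in siERRG3 from 0.919 to 2.15. RGS2, RGS5 and RGS20 had 13 to 67 counts and no ratio interval that left out 1. The other 8 RGS genes had 6 counts or fewer in every library, and RGS22 had 0, 0 and 2.

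Of the 9 adenylyl cyclases, which make cAMP from ATP, 2 carried most of the RNA. ADCY3, the leading one, had 1105, 1308 and 1307 counts, or 12.8, 14.6 and 14.9 FPKM. Its ratio was 1.17 in siERRG2 (1.08 to 1.27) and 1.16 in siERRG3 (1.07 to 1.26), off 1 by counting error in both but under 1.2-fold. ADCY9 (gene 115, chr16:3953387-4116442), a widely expressed cyclase that responds poorly to forskolin, had 862, 985 and 570 counts. It was at 0.18 in siERRG2, under the threshold, and at -0.62 in siERRG3 (0.584 to 0.724), with -0.79 between the ESRRG libraries (0.518 to 0.639). The share of ADCY9 in the family's FPKM was thus 26%, 26.6% and 16.9%, and that of ADCY3 59.4%, 61% and 68.3%.

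The calcium-inhibited ADCY6 had 264, 234 and 274 counts and its relative ADCY5 1 to 6. ADCY7, of the class that βγ dimers stimulate, had 80, 87 and 82, and the soluble, bicarbonate-sensitive ADCY10 had 22, 20 and 24. All of their ratio intervals included 1. ADCY1, ADCY2 and ADCY8 had 12 counts or fewer.

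Among the kinases that phosphorylate active receptors, GRK6 and GRK2 were at similar levels in siCont, at 50.1 and 42 FPKM. GRK6 had 2586, 2717 and 2766 counts, and both of its intervals included 1 (0.984 to 1.1 and 0.997 to 1.11). GRK2 (gene 156, chr11:67266473-67286556), which is drawn to the membrane by βγ dimers, had 2692, 2600 and 1902 counts, at -0.07 in siERRG2 (0.904 to 1.01) and -0.52 in siERRG3 (0.655 to 0.737). Its share of the family's FPKM was 40.7%, 38.6% and 30.4%. GRK3, the closest relative of GRK2, had 472, 474 and 580 counts and was higher in siERRG3 (0.27, 1.07 to 1.37), but at 0.13, under 1.2-fold, by FPKM with a pseudocount of 0.1. GRK5 had 324, 359 and 405 counts and was higher in siERRG3 (0.30, 1.06 to 1.43). GRK4 differed between the ESRRG libraries, with 63, 47 and 82 counts (0.77, 1.2 to 2.54), and the kinases of photoreceptors, GRK1 and GRK7, had 14 counts or fewer.

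Both β-arrestins, which bind phosphorylated receptors, were expressed, and ARRB2 was the more abundant, at 87.1, 71.5 and 92.3 FPKM against 14, 9.71 and 11.2 for ARRB1. ARRB1 (gene 408, chr11:75260122-75351661) had 2098, 1465 and 1708 counts, lower in siERRG2 (-0.53, 0.645 to 0.738) and in siERRG3 (-0.32, 0.751 to 0.854). ARRB2 (gene 409, chr17:4710632-4721497) had 3096, 2530 and 3300 counts, lower in siERRG2 (-0.31, 0.766 to 0.852) but at 0.07 in siERRG3, where its interval (0.998 to 1.1) included 1. ARRB2 also differed between the ESRRG libraries (0.38, 1.23 to 1.37).

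The calls of the 2 ESRRG libraries against their common control are set side by side here. Both calls of a gene rest on the same siCont library. The share of all genes called alike in both was not computed, so the lists are no result about the module. GNAI2, GNAZ, GNG10 and ARRB1 were lower beyond counting error in each, and RGS16 was higher in each. For GNAI2 the call in siERRG2 was lost with libraries scaled by total counts or by DESeq2 size factors. GNB4 was higher in siERRG2 and lower in siERRG3. GNB1, RGS3, ADCY9, GRK2 and GNAL were lower in siERRG3 without passing both criteria in siERRG2, and GNG12, GNB5, RGS19, GRK3, GRK5 and GNG3 were higher in siERRG3 in the same manner. GNG4, GNB3, GNG8 and ARRB2 were lower in siERRG2 without passing both in siERRG3, and GNG2 and RGS7 were higher there. GNAL, GNG8 and GNG3 are named among them although their means were under 50 counts. GNB3 and GNG8 were also past 1.2-fold lower in siERRG3 (-0.34 and -0.59), with intervals that included 1. The same held for GNAL, lower in siERRG2 (-0.65), and for RGS7, higher in siERRG3 (0.47).

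The neighbours and effectors of the module were taken from gene lists, whose counts stand beside the shares of all genes beyond counting error, 12.8% lower and 10.2% higher in siERRG2 and 19.9% and 17.1% in siERRG3. Of 17 tested G protein regulators other than RGS proteins, 4 were lower and 1 higher beyond counting error in siERRG2, and 3 and 2 in siERRG3, with a median log2 fold change of -0.07 and -0.02. With 17 genes these counts are too small to set apart from the shares of all genes. GPSM1, which binds GDP-bound Gαi, was lower in each library, with 2749, 2249 and 1913 counts (-0.31 and -0.55). Of the 3 tested phospholipase C β genes, the effectors of Gq, PLCB1 had 1050, 1407 and 527 counts, higher in siERRG2 (0.41, 1.22 to 1.44) and lower in siERRG3 (-1.02, 0.444 to 0.549). PLCB3 had 1025, 980 and 746, at -0.08 in siERRG2 and lower in siERRG3 (-0.48, 0.65 to 0.787). PLCB4 had 609, 595 and 601, under 1.2-fold in both. Of the 3 tested GIRK channel genes, which βγ dimers open, 0 passed both criteria in siERRG2 and 1 was lower in siERRG3.

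Of 38 tested cAMP effectors, which include protein kinase A, the phosphodiesterases and the CREB factors, 5 were lower and 2 higher beyond counting error in siERRG2, and 7 and 5 in siERRG3, near the 12.8%, 10.2%, 19.9% and 17.1% of all genes. The medians were 0.03 and -0.03. PRKACA, the main catalytic subunit of protein kinase A, was lower in each library, with 4300, 3592 and 3549 counts (-0.28, 0.79 to 0.863, and -0.30, 0.776 to 0.849). HCN4, a channel modulated by cAMP, was also lower, with 33, 15 and 13 counts (-1.06, 0.227 to 0.851, and -1.24, 0.187 to 0.756). Its mean was only 20.3 counts.

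Of 12 tested early genes that respond to cAMP, 7 were higher and 2 lower beyond counting error in siERRG2, and 7 higher and 0 lower in siERRG3, with medians of 0.34 and 0.33. Of all genes 10.2% were higher and 12.8% lower in siERRG2, and 17.1% and 19.9% in siERRG3, with medians of 0.000 and -0.003. The list was chosen with earlier results of these data known, and nothing particular to it is drawn from 12 genes in single libraries. Those higher in each were FOS with 18, 60 and 47 counts (1.62 and 1.27), NR4A3 with 21, 44 and 50 (0.98 and 1.15), PER1 with 288, 366 and 402 (0.33 and 0.45) and VGF, a secreted neuroendocrine peptide precursor, with 1645, 2146 and 3253 (0.37 and 0.96). The 2 lower in siERRG2 were FOSB, with 20, 8 and 19 counts, and EGR1, with a log2 fold change of -0.41 there and 0.02 in siERRG3. These genes also respond to other signals, and no cAMP level was measured. CREM, at 0.16 in siERRG2 and 0.28 in siERRG3, is on this list and also among the cAMP effectors. Its higher call in siERRG3 is counted in both.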

How the data were processed

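RNA of H128 cells was sequenced in 3 libraries (siCont, siERRG2 and siERRG3), 1 per condition, 48 h after transfection. The authors deposited 1 table of 17448 genes with estimated counts (expected counts) per gene, not normalized, and an expression value that behaves as FPKM although its unit is not named. In siCont 54.5% of the counts were whole numbers, in siERRG2 54.9% and in siERRG3 54%. For 43 members they were whole in every library. The table also holds the authors' log2 ratios to siCont and the authors' p-values from 1 library against 1 library, which were not used. The methods name GRCh37/hg19 with BWA and Bowtie 2, the submitters' processing notes name TopHat2, HTSeq and DESeq2 with several builds, and the gene positions in the table follow GRCh38, so which program made the values is not settled.

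Counts were rounded and filtered at 10 counts in at least 1 library. TMM factors (0.994, 1.003 and 1.003) came from edgeR 4.0.16 under R 4.3.3, and log2 CPM were taken with a prior count of 2. Ratio intervals are 95% exact binomial intervals by the Clopper-Pearson method (SciPy 1.17.1), which hold no spread between cultures. Against a library at 3 counts or fewer, a ratio is given with its counting interval or not at all. Positions, extents and promoter windows are from RefSeq of GRCh38.p14, matched on the gene identifier. Positions and extents were matched for all 71 members and promoter windows for 58. The extent in the table was over 1.5 times the RefSeq one for 29 of the 71. Libraries were also scaled by total counts and by DESeq2 1.42.0 size factors. The computations were tested on simulated data. The members and gene lists were chosen with earlier results of these data known. Full values are given for members past 1.2-fold and beyond counting error in either library with a mean of at least 50 counts, and for the gene with the highest level in each subfamily. The neighbours, promoter windows and motifs were chosen after values were seen, as were other genes named with values.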

Additional observations from a re-analysis of the deposited data

Results flagged for a closer look

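GNB4 differed between the 2 ESRRG libraries by a log2 fold change of -1.71 (siERRG3 against siERRG2), since it was above siCont in siERRG2 and below it in siERRG3. With 1 library for each siRNA the difference between their effects was not tested against replicates.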

How the results depend on the processing

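No paired analysis was possible because there was 1 library per condition, and for the same reason no library could be left out. The 240 log2 fold changes of the 20 named members under other scalings, a prior count of 0.5 or FPKM values each moved by less than their counting interval, and the calls lost were those of GNAI2 in siERRG2 (total counts, -0.250, and DESeq2 size factors, -0.255) and of GRK3 in siERRG3 (FPKM, 0.130 against siCont and 0.241 against siERRG2). Of the counts, medians and shares, 85 values stayed within 1.5 times the main count or within counting error, and the other 39 are the counts given here. Without the filter on low counts, siERRG2 against siCont had 21 members lower and 16 higher, siERRG3 against siCont 23 higher, and siERRG3 against siERRG2 23 higher. At a mean of at least 50 counts, 5 were higher in siERRG2 against siCont and 7 in siERRG3 against siERRG2. With a threshold of 1.5-fold, siERRG2 against siCont had 4 lower and 4 higher, 2 of the lower beyond counting error, siERRG3 against siCont 5 lower and 5 higher, of which 4 and 3 beyond counting error, and siERRG3 against siERRG2 4 lower and 4 higher, 3 and 3 beyond it. At 2-fold the counts were 1 lower and 0 higher, 1 lower and 1 higher, and 1 lower and 3 higher, of which 1 and 0, 1 and 1, and 1 and 2 were beyond counting error. Over the members with whole counts, an alternative chosen after seeing the data, siERRG2 against siCont had 3 lower, 2 of them beyond counting error, siERRG3 against siCont had 2 lower and 7 higher, 2 and 4 beyond it, and siERRG3 against siERRG2 had 7 lower and 5 higher, 5 and 5 beyond it. Stricter thresholds and smaller sets lower a count by construction, and more members tested raise it. Members under about 50 counts have intervals too wide to show a 1.2-fold difference, and so do some above it. GRK4, with a mean of 64 counts, had a ratio of 1.28 to siCont in siERRG3 with an interval from 0.91 to 1.81. Without replicates the spread between cultures is unknown.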
